A study of Mus musculus with 4 samples.

Results

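The glutathione cycle of a cell runs from cystine import to the recycling of the oxidized molecule, and the transcripts of 10 of its genes were followed here in mouse osteocyte-like cells with and without mechanical loading. The genes were chosen by name, with earlier results of these data known, and are *Slc7a11*, *Slc3a2*, *Gclc*, *Gclm*, *Gss*, *Ggct*, *Chac2*, *Gpx1*, *Gpx4* and *Gsr*. Each name occurs once among the 55450 genes of the count table, and all 10 passed the filter on low counts that left 16269 genes for testing. RNA-seq was made from 4 samples of MLO-Y4, an immortalized mouse line with osteocyte features, 2 of them unloaded and 2 loaded. The groups differed in 12 h of cyclic stretch (0.5 Hz, 20% strain, alike in all directions), and also in the surface under the cells. This was a flexible silicone base with a collagen coat (UniFlex) for the loaded group and the base of ordinary 6-well plates, left unstretched in the same incubator, for the unloaded group, so an effect of stretch and an effect of the plate cannot be told apart. Nothing in the labels says that the 2 samples of a group came from separate cultures, and p-values then measure only the spread between these samples.

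Libraries held between 28941994 and 32185693 counts. Levels are given as CPM, the count of a gene scaled to the total of its library with TMM factors, whose factors lay between 0.983 and 1.01. The osteocyte markers *Pdpn*, *Gja1*, *Cd44* and *Phex* were at 43.7 CPM or more in every library, whereas *Dmp1* was at 0.48 CPM or less, *Sost* at 0.12 CPM or less, *Fgf23* at 0.30 CPM or less and *Mepe* at 0. Of the osteocyte markers, *Pdpn* passed an edgeR adjusted p of 0.05 (0.0334) and was higher in loaded cells. Of the 5 macrophage markers 3 were tested, and all 3 were lower in both loaded libraries than in both unloaded ones. That separation was found in 24.5% of all tested genes. *Csf1r* was at 1558 to 1584 CPM in all libraries, with an edgeR log2 fold change of -0.02. *Lyz2* was at 1.65 CPM or less. *Cd68* was at 5.58 and 4.65 CPM in unloaded and 3.07 and 2.82 CPM in loaded libraries. *Ptprc* and *Adgre1* were at 0.12 CPM or less. The summed level of the list, nearly all of it from *Csf1r*, was 1580.4 to 1589.8 CPM in unloaded and 1562 to 1566 CPM in loaded libraries. Of the 4 osteoclast markers *Ctsk* was at 5.13 and 4.85 CPM in unloaded and 7.93 and 7.35 CPM in loaded libraries, beside *Acp5*, *Calcr* and *Ocstamp* at 0.20 CPM or less. Of the 3 endothelial markers *Kdr* had 0 counts in both unloaded and 17 and 14 counts in the loaded libraries, while the summed level of the list was 2.01 to 3.10 CPM in unloaded and 1.38 to 2.70 CPM in loaded libraries. Among the 5 osteoblast markers, *Col1a1* was at 931 to 1032 CPM and *Runx2* at 48.5 to 56.4 CPM over all libraries. The others, *Sp7*, *Alpl* and *Bglap*, were at 0.775 CPM or less. Among the 3 adipocyte markers, *Fabp4* was at 6.96 to 9.16 CPM, *Plin1* at 0.13 CPM or less and *Adipoq* at 0. None of the markers outside the osteocyte list passed an edgeR adjusted p of 0.05, the smallest being 0.135. The part of such cells in the results was not tested. In RNA from whole cultures, fewer cells that express a gene and less RNA per cell cannot be told apart.

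Glutathione is a tripeptide of glutamate, cysteine and glycine and the most abundant small thiol of animal cells. Its synthesis is limited by cysteine, which cultured cells take up mainly as cystine, the oxidized dimer, in exchange for glutamate. Glutathione then gives its electrons to peroxidases, is oxidized to a disulfide and is reduced again with NADPH. Several genes of this cycle are known targets of NRF2, a transcription factor that binds antioxidant response elements, and of ATF4, which binds amino acid response elements.

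The sequences before the start sites of *Slc7a11*, *Gclm* and *Ggct* are shown because these were the members in which a searched motif was found. RefSeq (GRCm38.p6) gave 11 windows of 300 bases, 250 before and 50 after a start site, for 8 of the 10 genes. *Gclc* and *Gsr* had no window. The start sites are those of RefSeq and can differ from the ends of the genes given below, which come from GENCODE. For *Ggct*, the GENCODE gene reaches position 54992950 and so takes in part of the bases shown. The motifs searched on both strands were the antioxidant response element core TGACNNNGC, the AP-1 type site TGANTCA and the core of the ATF4 amino acid response element, TGATGNAA. The last 180 bases before the start are printed 5′ to 3′ on the strand of the gene, with matches in capitals, for *Slc7a11* (chr3:50443614-50443793, minus strand), *Gclm* (chr3:122245377-122245556, plus strand) and *Ggct* (chr6:54992868-54993047, minus strand).
Slc7a11: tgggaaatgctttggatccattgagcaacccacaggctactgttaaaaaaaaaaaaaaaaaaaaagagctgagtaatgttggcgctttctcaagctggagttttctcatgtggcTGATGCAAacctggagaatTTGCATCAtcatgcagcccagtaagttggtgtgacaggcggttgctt
Gclm: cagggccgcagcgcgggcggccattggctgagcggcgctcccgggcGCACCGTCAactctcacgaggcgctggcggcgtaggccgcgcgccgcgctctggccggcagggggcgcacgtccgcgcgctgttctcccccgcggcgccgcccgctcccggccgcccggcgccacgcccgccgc
Ggct: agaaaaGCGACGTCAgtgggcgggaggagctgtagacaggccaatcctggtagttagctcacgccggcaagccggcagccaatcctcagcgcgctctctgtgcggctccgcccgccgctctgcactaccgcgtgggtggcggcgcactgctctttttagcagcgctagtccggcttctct

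The *Slc7a11* window held 2 ATF4 cores, at positions -66 to -59 and, on the opposite strand, at -47 to -40, with 11 bases between them. An ATF4 core was present in 3.97% of all 32851 promoter windows, and 2 or more in 0.0700% of them. The *Gclm* window held an antioxidant response element core on the opposite strand at -134 to -126. The *Ggct* window held such a core at -174 to -166 and another after the start, at 6 to 14. This core occurred in 12.4% of all windows, and 2 or more in 0.986%. No AP-1 type site, which 7.81% of all windows held, was found in a member. In 5 of the 8 genes none of the searched letters were found, which says nothing of sites outside these windows.

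To see which steps of the cycle differed between loaded and unloaded cells, each gene was read from edgeR's quasi-likelihood test over all 16269 genes. Both loaded libraries lay above both unloaded libraries in 5 genes: *Slc7a11*, *Slc3a2*, *Gclc*, *Gss* and *Gsr*. Such a separation was found in 22.1% of all tested genes. The separation in the opposite direction, found in 24.5% of all tested genes, did not occur among the 10. At the study's threshold of an adjusted p under 0.01 edgeR called 0 of the 10 genes higher and 0 lower, against 0.0123% and 0.0861% of all tested genes. Without adjustment, 5 of the 10 were higher and 0 lower at p under 0.05 in edgeR, against 6.88% and 7.46% of all tested genes. At an adjusted p under 0.05 it called *Slc7a11* higher and no member lower, against 0.338% and 0.565% of all tested genes. DESeq2, the tool named in the methods of the study, was run on the same counts and called 2 of the 10 higher at an adjusted p under 0.01, *Slc7a11* and *Gss*, and 0 lower, against 1.36% and 1.55% of the 12484 genes to which it gave an adjusted p. The log2 fold change was positive in 9 of the 10 genes, with a median of 0.18, whereas it was positive in 48.5% of all tested genes, whose median was -0.01. Because the 10 genes were chosen with earlier results of these data known, these counts and shares are only a description.

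**Figure D1:**
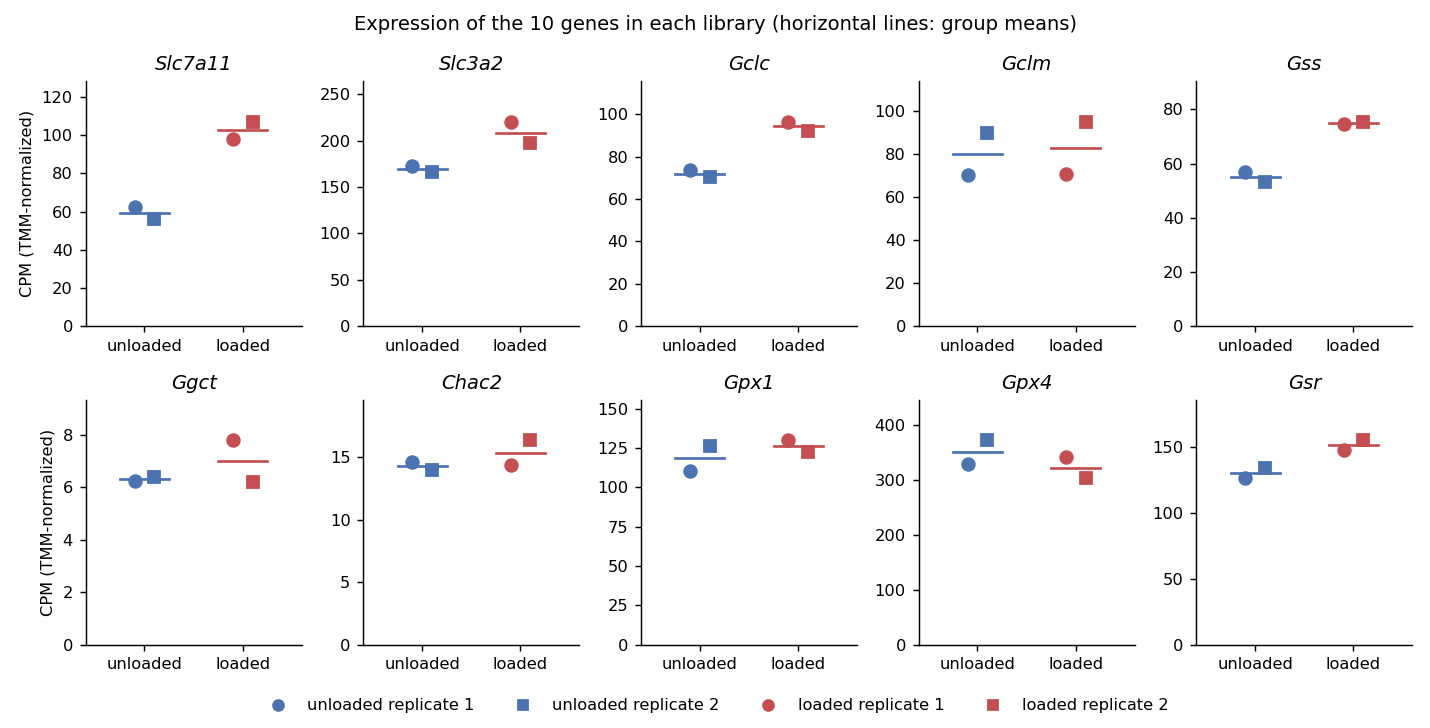
Expression of the 10 genes in TMM-normalized CPM (each vertical axis starts at 0), with 1 point per library, circles for replicate 1, squares for replicate 2 and horizontal lines for the group means. *Slc7a11*, *Slc3a2*, *Gclc*, *Gss* and *Gsr* have both loaded libraries above both unloaded libraries, and in *Gclm* replicate 2 lies above replicate 1 in either group.

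The first step is import. *Slc7a11* (ENSMUSG00000027737.10, GRCm38 chromosome 3, 49892526 to 50443614, minus strand) encodes xCT, the transport subunit of the cystine and glutamate exchanger. It was at 62.3 and 56.3 CPM in the unloaded libraries and at 98.1 and 107 CPM in the loaded libraries, from 1705 to 3188 counts. Every loaded library was thus above every unloaded one, and the smallest gap between the groups, 0.66 on the log2 scale, exceeded the gaps within them, 0.15 and 0.12. The fold change was 1.73 (log2 fold change 0.79, with a standard error, SE, of 0.0978). Adjusted p was 0.0361 in edgeR and 7.55e-09 in DESeq2. In edgeR it was 0.0326 without unloaded replicate 1, 0.0580 without unloaded replicate 2, 0.0770 without loaded replicate 1 and 0.116 without loaded replicate 2, so the call at 0.05 needed every library but unloaded replicate 1. It was also lost without the filter on low counts, with an adjusted p of 0.0694 in edgeR. By edgeR's p, *Slc7a11* was number 80 of all tested genes.

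*Slc3a2* (ENSMUSG00000010095.13, chromosome 19, 8706882 to 8723369, minus strand) encodes the heavy chain that carries xCT and several other amino acid transporters to the cell surface. It was at 172 and 167 CPM in unloaded and at 220.3 and 197 CPM in loaded libraries. The groups did not overlap, but the loaded libraries differed from each other by 0.16 on the log2 scale, close to the smallest gap between the groups, 0.19. The fold change was 1.23 (log2 fold change 0.30, SE 0.0782), and adjusted p was 0.169 in edgeR and 0.0343 in DESeq2, above the threshold of 0.01 in both.

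Synthesis follows in a pair of ligations. Glutamate-cysteine ligase, which makes the limiting step, has a catalytic subunit encoded by *Gclc* and a modifier subunit encoded by *Gclm*. *Gclc* (ENSMUSG00000032350.9, chromosome 9, 77754535 to 77794485, plus strand) was at 73.5 and 70.4 CPM in unloaded and at 96.4 and 92.1 CPM in loaded libraries. Replicates lay within 0.07 on the log2 scale in either group, and the smallest gap between the groups was 0.32. The fold change was 1.31 (log2 fold change 0.39, SE 0.0835), with an adjusted p of 0.128 in edgeR and 0.0144 in DESeq2.

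*Gclm* (ENSMUSG00000028124.15, chromosome 3, 122245557 to 122270732, plus strand) did not share the separation of its partner. It was at 70.4 and 89.8 CPM in unloaded and at 71.0 and 95.1 CPM in loaded libraries. The groups overlapped almost fully, and replicate 2 was above replicate 1 by 0.35 in unloaded and 0.42 in loaded cells on the log2 scale, more than in any other member within either group. The log2 fold change was 0.05 (SE 0.176, and adjusted p = 0.931 in edgeR). Its sign depended on the libraries: it was -0.11 without unloaded replicate 1 and -0.18 without loaded replicate 2. Exons of *Gclm* share 296 bases with *Gm17494* on the opposite strand, which had 550 to 765 counts, and how strand was used in counting is not given in the sources used here.

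*Gss* (ENSMUSG00000027610.17, chromosome 2, 155563181 to 155592810, minus strand) encodes glutathione synthetase, which adds glycine. It was at 57.0 and 53.1 CPM in unloaded and at 74.8 and 75.4 CPM in loaded libraries. The loaded libraries lay within 0.01 of each other on the log2 scale, and the smallest gap between the groups was 0.39. The fold change was 1.36 (log2 fold change 0.45, SE 0.0908). DESeq2 called it higher with an adjusted p of 0.00767, while the edgeR adjusted p of 0.113 did not pass. On the opposite strand its exons share 395 bases with *Acss2*, which had 1091 to 1291 counts, 385 bases with *Gssos2* and 322 bases with *Gssos1*, both with 11 counts or fewer in every library. Like *Gss*, *Acss2* had more counts in the loaded libraries, 1291 and 1222 against 1122 and 1091, and whether its reads enter the count of *Gss*, and so its DESeq2 call, was not tested.

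**Figure D2:**
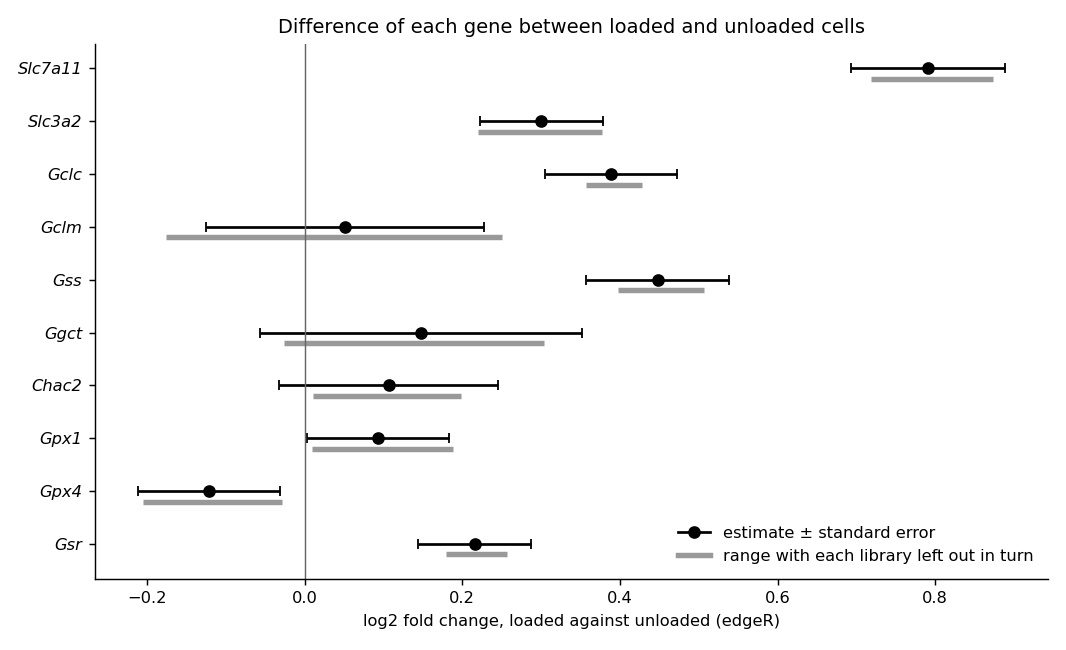
Log2 fold change of each gene, loaded against unloaded, from edgeR, with the standard error (black) and the range of the estimate when each of the 4 libraries is left out in turn (grey). *Slc7a11* lies highest at 0.79, and the grey ranges of *Gclm* and *Ggct* cross 0.

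Glutathione and related gamma-glutamyl peptides are broken down inside the cell by cyclotransferases. *Chac2* (ENSMUSG00000020309.6, chromosome 11, 30976707 to 30986350, minus strand) encodes a slow enzyme of this kind that acts on reduced glutathione. It was at 14.6 and 14.0 CPM in unloaded and at 14.4 and 16.4 CPM in loaded libraries, a log2 fold change of 0.11 (SE 0.139, and adjusted p = 0.789 in edgeR). *Ggct* (ENSMUSG00000002797.9, chromosome 6, 54982580 to 54992950, minus strand), whose product releases 5-oxoproline from gamma-glutamyl amino acids, had the fewest counts of the 10 genes, 181 to 251. It was at 6.23 and 6.37 CPM in unloaded and at 7.78 and 6.17 CPM in loaded libraries. The loaded libraries lay on either side of the unloaded ones. The log2 fold change was 0.15 (SE 0.204, and adjusted p = 0.804 in edgeR) and turned to -0.027 without loaded replicate 1.

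The peroxidases use glutathione as electron donor, and both contain selenocysteine. *Gpx1* (ENSMUSG00000063856.7, chromosome 9, 108338903 to 108340343, plus strand), which reduces hydrogen peroxide, was at 111 and 126 CPM in unloaded and at 130.02 and 123 CPM in loaded libraries. The groups overlapped, with a log2 fold change of 0.09 (SE 0.0899, and adjusted p = 0.701 in edgeR). *Gpx4* (ENSMUSG00000075706.10, chromosome 10, 80047166 to 80056439, plus strand), which reduces lipid hydroperoxides in membranes and guards against ferroptosis, was the sole member with a negative estimate. It was at 328 and 371 CPM in unloaded and at 340.3 and 303 CPM in loaded libraries, a log2 fold change of -0.12 (SE 0.0900, and adjusted p = 0.603 in edgeR). The groups overlapped here too. The processed pseudogene *Gpx4-ps2* contains 34.7% of the 50-base words of *Gpx4* transcripts and had 213 and 359 counts in unloaded and 389 and 187 counts in loaded libraries. With these counts added to *Gpx4*, a choice made after the data were seen, the log2 fold change was -0.12 (adjusted p = 0.631 in edgeR).

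*Gsr* (ENSMUSG00000031584.16, chromosome 8, 33652523 to 33698163, plus strand) encodes glutathione reductase, which returns the disulfide to glutathione with NADPH. It was at 126 and 134 CPM in unloaded and at 148 and 155 CPM in loaded libraries. The groups were separated by 0.14 on the log2 scale, with gaps of 0.08 and 0.07 within them. The fold change was 1.16 (log2 fold change 0.22, SE 0.0719), and adjusted p was 0.261 in edgeR and 0.228 in DESeq2.

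The transcripts of 3 pairs of genes were then compared as ratios within each library, since such a ratio does not depend on how libraries are scaled. For *Slc7a11* to *Slc3a2* the ratio of CPM was 0.361 and 0.338 in unloaded and 0.445 and 0.543 in loaded libraries. Its mean log2 value was higher in loaded cells by 0.49, against an SD of 0.07 in unloaded and 0.20 in loaded cells (n = 2 each). For *Gclm* to *Gclc* the ratio was 0.957 and 1.28 in unloaded and 0.737 and 1.03 in loaded libraries, which overlapped. For *Gpx4* to *Gpx1* the ratio was 2.96 and 2.94 in unloaded and 2.62 and 2.47 in loaded libraries, a difference of -0.22 in mean log2 value with SDs of 0.01 and 0.06. In unloaded cells both peroxidase genes were higher in replicate 2 than in replicate 1, by 0.18 for *Gpx4* and 0.19 for *Gpx1* on the log2 scale, and their ratio was nearly the same in both libraries. The two-sided exact permutation test gave p = 0.333 for *Slc7a11* to *Slc3a2* and for *Gpx4* to *Gpx1*, the smallest p that 2 against 2 libraries allow, and p = 0.667 for *Gclm* to *Gclc*. Adjusted over the 3 ratios, these exact p-values were 0.5, 0.5 and 0.667.

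**Figure D3:**
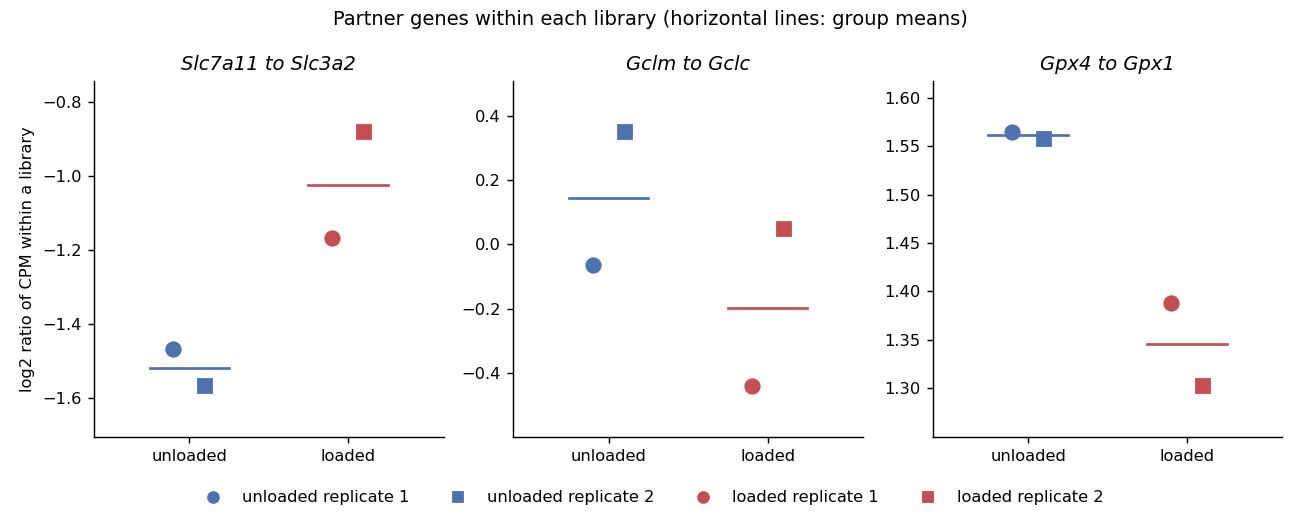
Log2 ratio of CPM within each library for 3 pairs of genes, with 1 point per library (circles for replicate 1, squares for replicate 2) and lines for the group means. The loaded points lie above the unloaded points for *Slc7a11* to *Slc3a2* and below them for *Gpx4* to *Gpx1*, and overlap with them for *Gclm* to *Gclc*.

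To place the genes on a common scale, CPM was divided by the length of the annotated exons in kilobases. The order of levels from high to low was *Gpx4*, *Gpx1*, *Slc3a2*, *Gsr*, *Gclc*, *Gclm*, *Gss*, *Chac2*, *Slc7a11* and *Ggct*. *Gpx4* had a median of 194 CPM per kilobase over the 4 libraries (range 176 to 215), above 98.9% of tested genes. *Gpx1* followed at 86.4 (76.9 to 90.2) and *Slc3a2* at 52.3 (47.2 to 62.4), whose range overlapped with that of *Gsr*, at 51.1 (45.9 to 56.2). *Gclc* was at 21.99 CPM per kilobase (18.7 to 25.6). *Gclm*, *Gss* and *Chac2* followed with medians of 12.8, 11.1 and 11.03, and the range of each overlapped with those of both others. *Slc7a11* was at 5.76 CPM per kilobase (4.04 to 7.68), near the middle of all tested genes at percentile 53.7, and *Ggct* was lowest at 0.813 (0.797 to 1.004). The gene with the largest fold change thus had the second lowest level per length of the 10. Per kilobase, *Slc3a2* exceeded *Slc7a11* by 10.9 and 11.7 times in unloaded and by 8.86 and 7.27 times in loaded libraries. The union of annotated exons is long for *Slc7a11*, at 13922 bases. With the longest transcript as the length, 9223 bases for *Slc7a11*, the order changed in that *Gss* stood before *Gclm*. The median levels of *Gpx4*, *Gss*, *Slc7a11* and *Ggct* then moved by over 1.5 times, to 336, 20.2, 8.69 and 1.59 CPM per kilobase.

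**Figure D4:**
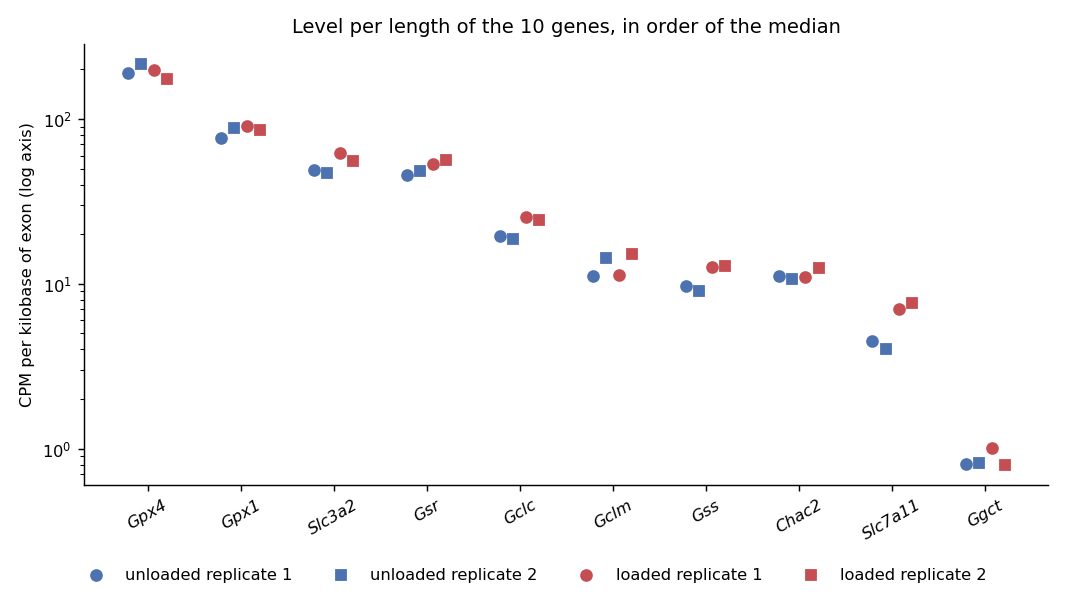
Level of each gene as CPM per kilobase of annotated exon (log axis), in order of the median, with 1 point per library. *Gpx4* lies near 194 and *Ggct* at 1.004 or below, and *Slc7a11* is the last but one.

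Genes around the cycle were taken from 6 lists with 73 genes, of which 59 were tested. In edgeR, 0 of the 59 were called in either direction at an adjusted p under 0.01 or 0.05, and without adjustment 9 were higher and 2 lower at p under 0.05, against 6.88% and 7.46% of all tested genes. DESeq2 called 1, *Sephs2*, higher at 0.01, against 1.36% of all genes with an adjusted p. The median log2 fold change of the 59 was 0.05, with 32 positive and 27 negative values. Both loaded libraries lay above both unloaded ones in 20 of the 59 and below them in 9, against 22.1% and 24.5% of all tested genes. The counts of such separations given below for each list stand beside these same shares. Among the 8 tested carriers of cystine, cysteine and related amino acids, 6 had both loaded libraries above both unloaded ones and 1 had them below, with a median log2 fold change of 0.16. *Slc7a5*, another light chain of *Slc3a2* that carries large neutral amino acids, was at 162 and 154 CPM in unloaded and at 190.1 and 182 CPM in loaded libraries (log2 fold change 0.24, edgeR adjusted p = 0.195). *Slc1a5*, a carrier of glutamine, had a log2 fold change of 0.24 (adjusted p = 0.374 in edgeR), which ranged from 0.10 to 0.36 with single libraries left out.

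Among 10 tested genes of cysteine synthesis and breakdown, 4 were separated upward and 1 downward, with a median of 0.06. *Cth*, which makes cysteine from cystathionine, was at 13.3 and 12.3 CPM in unloaded and at 16.7 and 17.8 CPM in loaded libraries (log2 fold change 0.43, edgeR adjusted p = 0.226). *Got1*, the cytosolic aspartate aminotransferase, had a log2 fold change of 0.34 (adjusted p = 0.141 in edgeR). *Cbs*, the enzyme before *Cth*, was at 0.20 CPM or less in every library and was not tested. Of 13 tested genes of glutathione breakdown and transport, 6 were separated upward and 2 downward, with a median of 0.16. *Abcc4*, an exporter of organic anions, had a log2 fold change of 0.28 (adjusted p = 0.213 in edgeR), and *Oplah*, the 5-oxoprolinase that follows the cyclotransferases, had -0.63 (adjusted p = 0.286 in edgeR).

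The selenoprotein list bears on *Gpx1* and *Gpx4*, and 3 of its 10 tested genes were separated upward and 0 downward, with a median of -0.05. *Sephs2*, which makes the selenium donor for selenocysteine, was at 79.6 and 72.8 CPM in unloaded and at 108 and 103 CPM in loaded libraries. Its log2 fold change was 0.47 (SE 0.0873), and it passed in DESeq2 (adjusted p = 0.0013) but not in edgeR (adjusted p = 0.0935). Of 10 tested genes among other peroxidases and glutaredoxins, 1 was separated upward and 2 downward, with a median of -0.01. *Glrx5*, a mitochondrial glutaredoxin for iron-sulfur clusters, had a log2 fold change of 0.26 (adjusted p = 0.346 in edgeR), and *Glrx2* had -0.27 (adjusted p = 0.503 in edgeR), with a range from -0.39 to -0.13 when single libraries were omitted. Of 8 tested partners of *Gpx4* in lipid peroxidation, 0 were separated upward and 3 downward, again with a median of -0.01. *Aifm2*, which limits lipid peroxidation without glutathione, had a log2 fold change of -0.24 (adjusted p = 0.338 in edgeR). *Vkorc1l1*, a vitamin K reductase, had 0.65 (adjusted p = 0.433 in edgeR), and this value was 0.00 without loaded replicate 2.

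**Figure D5:**
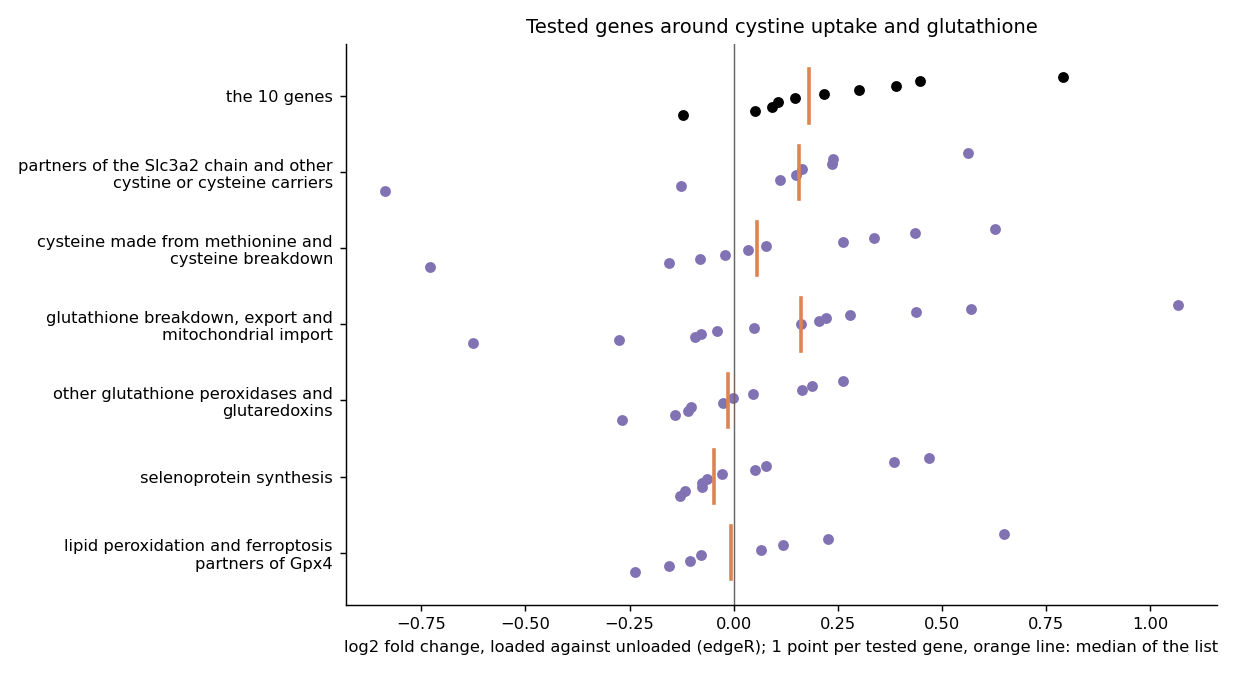
Log2 fold change, loaded against unloaded, of the 10 genes (black) and of the 59 tested genes of 6 surrounding lists (purple), with 1 point per gene and an orange line at the median of each list. The medians run from -0.05 for selenoprotein synthesis to 0.18 for the 10 genes.

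The genes whose pattern over the 4 libraries was nearest to that of *Slc7a11* were *Renbp*, *Hsd17b7*, *Fnip2*, *Serpinb9b* and *Slc35e2*. Nearness was measured as the root mean square difference of log2 CPM, each gene centred on its unloaded mean, among 9680 genes of at least 10 CPM. It was 0.0321 for *Renbp*, which was at 21.6 and 20.0 CPM in unloaded and at 35.7 and 38.2 CPM in loaded libraries. For the other 4 it ranged from 0.0680 to 0.0856, and their log2 fold changes ran from 0.71 to 0.90. No other member of the cycle was among these 5. The largest log2 fold change of another member was 0.45, for *Gss*. Since the measure grows with a difference in fold change, this absence adds nothing to the fold changes given above.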

How the data were processed

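Raw counts per gene were deposited for 2 unloaded and 2 loaded samples, grouped by their titles. The authors depleted ribosomal RNA, mapped trimmed reads to mm10 with HISAT2 2.1.0, assembled transcripts with StringTie 1.3.5 and made whole-number counts with StringTie's preparation script, which derives them from coverage. The strand setting and annotation version are not given in the sources used here. Annotation came from GENCODE M21 (GRCm38), which held all 55450 gene identifiers.

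Counts were filtered with filterByExpr (count minimum 10), TMM-normalized and tested with edgeR 4.0.16 (quasi-likelihood F test, R 4.3.3). The p-values were adjusted by Benjamini-Hochberg across the 16269 genes left by the filter, with the study's threshold of 0.01. The standard error is the log2 fold change over the square root of F. Alternatives were DESeq2 1.42.0, limma-voom (limma 3.58.1), edgeR's exact test, RLE and upper-quartile factors, no filter, a minimum of 10 counts per library, a block for the replicate number, a threshold of 0.05 and each library left out. The code was tested on simulated data. The 10 genes and all lists were chosen with earlier results of these data known. Named from each list were genes called by DESeq2 at 0.01 or edgeR at 0.05, otherwise the 2 of smallest p. *Cbs* and the other genes of shared pools were named after their values were seen. Depth was alike across libraries, and precision rests on the spread of 2 samples per group.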

Additional observations from a re-analysis of the deposited data

How the results depend on the processing

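Over the alternatives run on the 10 genes, 115 of 121 log2 fold changes kept both their direction and their side of the threshold, 3 came to pass the threshold and 3 changed sign. The count of members called higher moved from 0 to 1 at an adjusted p under 0.05, to 2 with DESeq2 and to 1 with edgeR's exact test, and that of the surrounding genes called higher moved from 0 to 1 with DESeq2. The cause was not tested. The log2 fold change of *Gclm* ranged from -0.18 to 0.25 and that of *Ggct* from -0.027 to 0.30 with single libraries left out; the sign changed for *Gclm* without unloaded replicate 1 (-0.11) and loaded replicate 2 (-0.18), and for *Ggct* without loaded replicate 1. In the fits that leave out a library, the group left with 1 sample is assumed to vary like the other group. With the replicate number as a block, 0 members were called and adjusted p of *Slc7a11* in edgeR was 0.0822; without a filter it was 0.0694, and neither passed 0.05. The deviations of equally numbered libraries from their group means had a correlation across 9681 genes of -0.08. At 0.01 there was no call that the block could remove. *Ggct*, the member with the fewest counts (181 to 251), also had the largest SE of the 10 log2 fold changes (0.204).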

Other observations

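The heavy chain encoded by *Slc3a2* serves several light chains, and their makeup was computed per length after the values of the genes were seen, so it is given as a description. All shares below use the union of annotated exons as the length and depend on that choice. With the longest transcript, the median CPM per kilobase moved from 194 to 336 for *Gpx4*, from 5.76 to 8.69 for *Slc7a11* and from 0.813 to 1.59 for *Ggct*. Shares with that length were not computed. Of the summed CPM per kilobase of 6 light chain genes, *Slc7a11* made up 7.69% and 7.21% in unloaded and 10.2% and 11.3% in loaded libraries. *Slc7a5* held the largest share, with 74.9% and 74.1% in unloaded and 74.0% and 72.4% in loaded libraries. *Slc7a6* held 16.7% and 17.1% in unloaded and 14.5% and 15.9% in loaded libraries. Both loaded libraries were thus above both unloaded ones for *Slc7a11* and below them for *Slc7a5* and *Slc7a6*. In CPM, 22.1% of all tested genes were separated upward and 24.5% downward in this way. These are shares of a sum: in CPM both *Slc7a5* and *Slc7a6* (44.3 and 43.9 in unloaded, 46.03 and 49.2 in loaded libraries) were also above in both loaded libraries. Among the glutathione peroxidase genes, *Gpx4* and *Gpx8*, which encodes a peroxidase of the endoplasmic reticulum, made up 38.2% to 43.7% and 34.3% to 41.2% of the level per length, while *Gpx1* held 16.7% and 17.5% in unloaded and 20.0% and 18.5% in loaded libraries, which did not overlap. This is again a share of a sum. In CPM the groups of *Gpx1* overlapped, at 111 and 126 in unloaded and 130.02 and 123 in loaded libraries. *Gpx2*, *Gpx5* and *Gpx6* were at 0 counts in every library. Among the cyclotransferases, *Chac1*, an ATF4 target that cleaves glutathione, held 69.4% to 73.7%, *Chac2* 24.1% to 28.7% and *Ggct* 1.84% to 2.21%. The ranges of loaded and unloaded libraries overlapped for *Gpx4*, *Gpx8* and all 3 cyclotransferase genes.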
